A study of Mus musculus with 6 samples.

Results

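The genes described here encode the proteins of the mitochondrial ribosome, in tissue labelled iWAT, the white fat beneath the skin of the groin, of mice fed a high-fat diet. Members were the genes of the deposited expression table whose identifier belongs to a GENCODE M21 protein-coding gene with a symbol that starts with Mrpl or Mrps and a digit. 78 such genes are annotated, and all 78 were in the table of 15176 rows and among the 15006 rows tested. Steap4AKO mice lack Steap4, a metalloreductase of the STEAP family, in adipocytes, and the libraries labelled Steap4AKO carry the replicate numbers 2 and 3. Steap4f/f mice carry the floxed alleles, and the libraries labelled Steap4f/f carry the replicate numbers 1, 2, 5 and 6. All 6 libraries are labelled as iWAT of animals on the high-fat diet, although markers put the depot of Steap4AKO replicate 2 in doubt, and RNA was extracted with a kit for fatty tissue. The sources used here do not name the Cre driver or the sex and age of the mice. Nothing in the labels ties the libraries to separate mice, so p-values measure only the spread between these libraries.

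The mitochondrial ribosome makes the few proteins encoded by mitochondrial DNA, which are core subunits of the respiratory chain and of ATP synthase. Its RNAs come from the mitochondrial genome, whereas its proteins are encoded in the nucleus, made in the cytosol and imported. Some of these proteins descend from those of bacterial ribosomes, and others were gained in mitochondria. The symbols Mrps and Mrpl stand for the small subunit, which decodes the messenger RNA, and the large subunit, which joins amino acids. Structures of the mammalian ribosome place Mrps30 and Mrps18a in the large subunit despite their symbols. With these placements, 26 members belonged to the small and 51 to the large subunit. Mrps36 was counted in neither, since it is known as a component of the 2-oxoglutarate dehydrogenase complex. Of the 77 ribosomal members, 46 were counted as bacterial homologs and 31 as specific to mitochondria. The 31 include Mrps18a and Mrps18b, which resemble bacterial S18 but hold other places in the ribosome.

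The deposited values are read counts scaled between libraries by the authors, and they are called values here. They summed to 16573561 and 17979641 in the Steap4AKO libraries and to between 18846321 and 20547925 in the Steap4f/f libraries. The steps between low values put the depth at about 23200000 and 18100000 reads in the Steap4AKO libraries and at 15900000 to 19400000 reads in the Steap4f/f libraries. Values of Steap4 itself were 8312.6 and 8013.6 in Steap4AKO replicates 2 and 3, against 17018, 9417.2, 8310.0 and 8851.2 in Steap4f/f replicates 1, 2, 5 and 6. The groups overlapped in Steap4, and the difference did not pass the test (log2 difference -0.35, SE 0.29, adjusted p = 0.544 by limma with Benjamini-Hochberg adjustment). The group names used here are therefore those of the labels, without a check from the targeted gene. Steap4AKO replicate 2 stood apart from all other libraries, where 963 genes exceeded their next highest library by over 2-fold, against 19 to 144 such genes in the others. Tbx15, a gene of subcutaneous fat, had 1.371 and 316.1 in Steap4AKO replicates 2 and 3, against 660.8, 1047.1, 759.1 and 1329.8 in Steap4f/f libraries. The summed values of Tbx15, En1 and Shox2 came to 1.46% of the Steap4f/f mean in Steap4AKO replicate 2 and to 53.3% in replicate 3, so the inguinal label of Steap4AKO replicate 2 is in doubt. Its sums of 5 mesothelial, 4 epithelial, 6 macrophage and 4 B cell markers came to 1210%, 9050%, 343% and 739% of the Steap4f/f mean. In Steap4AKO replicate 3 the same sums stood at 13.5%, 43.2%, 96.5% and 80.1%. Of the epithelial markers, Epcam was at 0 in Steap4AKO replicate 3 and in Steap4f/f replicates 1, 2 and 6. The 8 adipocyte markers summed to 83.6% and 106% of the Steap4f/f mean in Steap4AKO replicates 2 and 3, and to 94.3% to 104% in the Steap4f/f libraries. Their median log2 difference from the Steap4f/f mean was -0.76 in Steap4AKO replicate 2 and 0.15 in replicate 3, with Fabp4 and Adrb3 below and Lep and Lpl above all Steap4f/f libraries in both. The 5 markers of thermogenic adipocytes, cells rich in mitochondria, all had lower means in Steap4AKO libraries, with sums of 147.7 and 558.0, against 771.2, 660.3, 2566.1 and 3950.7 in Steap4f/f replicates 1, 2, 5 and 6. Among them Cox7a1 lay below all Steap4f/f libraries in both Steap4AKO libraries (52.4 and 70.36, against 116.6 to 389.0), and Elovl3 was at 0 in Steap4AKO replicate 3 and Steap4f/f replicate 2. The 5 adipose progenitor markers summed to 58.9% and 70.9% in the Steap4AKO libraries, against 91.2% to 107% in the Steap4f/f libraries. Most of these sums came from Col1a1 and Col3a1. As a mean over markers the Steap4AKO libraries stood at 76.5% and 70.3%, against 90.0% to 112%. In both of them 4 of the 5 markers lay below all Steap4f/f libraries. The other, Dpp4, had 540.0 and 248.7, against 339.1, 386.2, 260.2 and 338.2. All 16 markers of skeletal muscle were detected in every library, with sums of 2802.2 and 20134 in the Steap4AKO libraries and of 155410, 654070, 504472 and 838340 in Steap4f/f replicates 1, 2, 5 and 6. The part of these cell types in the differences below was not tested, and the main medians and counts are also given for each Steap4AKO library alone.

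Values of the mitochondrial ribosomal protein genes were lower in the Steap4AKO libraries across nearly the whole set. Of the 78 members, 76 had a lower mean in Steap4AKO than in Steap4f/f libraries, whereas 47.8% of all genes tested did. The exceptions, Mrpl3 and Mrps22, had higher fitted means. The median log2 difference over the members was -0.43, with an interquartile range of -0.55 to -0.30, and the median over all genes tested was 0.02. With libraries scaled to equal sums the members' median was -0.25, where that of all genes was 0.21, and 66 members had a lower mean. In 51 members (65.4%) both Steap4AKO libraries lay below all 4 Steap4f/f libraries, against 14.4% of all genes tested. Scaled to equal sums, 29 members and 7.67% of all genes did. Members lying above all Steap4f/f libraries in both Steap4AKO libraries numbered 0, against 14.1% of all genes. Among the 7367 genes whose mean value lay in the members' own range, 16.6% lay below all Steap4f/f libraries, and the median log2 difference was 0.00.

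No single member passed the test across all genes. At an adjusted p under 0.05, 65 of all genes tested were lower (0.433%) and 6 were higher (0.04%), and no member was among them. With Steap4AKO replicate 2 as the only Steap4AKO library, the members' median log2 difference was -0.562, and with replicate 3 alone it was -0.319. The smallest adjusted p of a member was 0.0634, for Mrpl12 (limma, Benjamini-Hochberg over all 15006 genes). At an unadjusted p under 0.05, 42 of the 78 members (53.8%) were lower and 0 were higher, against 9.66% and 8.45% of all genes tested. The other 36 members did not reach that level. The 42 became 27 without Steap4f/f replicate 2, 26 without Steap4f/f replicate 5 and 12 with libraries scaled to equal sums. The count also fell without Steap4AKO replicate 2, the library of doubtful depot. That fit leaves 1 Steap4AKO library, so its count is not given. Shares of all genes under these settings are not given here, so whether the members still stood apart was not tested. In bulk tissue, fewer cells of a type and less RNA per cell cannot be told apart, and this holds for every value given here.

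The Steap4AKO libraries differed from each other in how low the members lay. Relative to the Steap4f/f mean, the members' median log2 value was -0.56 in Steap4AKO replicate 2 and -0.32 in Steap4AKO replicate 3. The Steap4f/f libraries lay at 0.05, -0.02, 0.02 and -0.07 for replicates 1, 2, 5 and 6, with an SD of 0.05. Each Steap4AKO library therefore lay below the lowest Steap4f/f library. Steap4AKO replicate 2 was below replicate 3 in 62 of the 78 members, against 49.5% of all genes tested. In Steap4AKO replicate 2 alone, 67 members lay below all Steap4f/f libraries (28.6% of all genes did), and in replicate 3 alone 53 did (23.4% of all genes). Of the 78 members, 56 had their lowest value of the 6 libraries in Steap4AKO replicate 2 and 13 in replicate 3. As a share of all summed values, the members made up 0.23% and 0.249% in the Steap4AKO libraries, against 0.297%, 0.273%, 0.3% and 0.265% in Steap4f/f replicates 1, 2, 5 and 6. The Steap4f/f libraries differed from each other in muscle and thermogenic markers. In replicates 1, 2, 5 and 6 the muscle sums were 28.9%, 122%, 93.8% and 156% of the group mean. The thermogenic sums were 38.8%, 33.2%, 129% and 199% in the same order. In Steap4AKO replicates 2 and 3 the muscle sums were 0.521% and 3.74% of that mean, below every Steap4f/f library. Their thermogenic sums were 7.43% and 28.1%. As a mean over the thermogenic markers they stood at 33.3% and 19.1%, in reverse order, against 62.9%, 39.5%, 106% and 191% in the Steap4f/f libraries. Any link between these markers and the members was not tested.

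**Figure D1:**
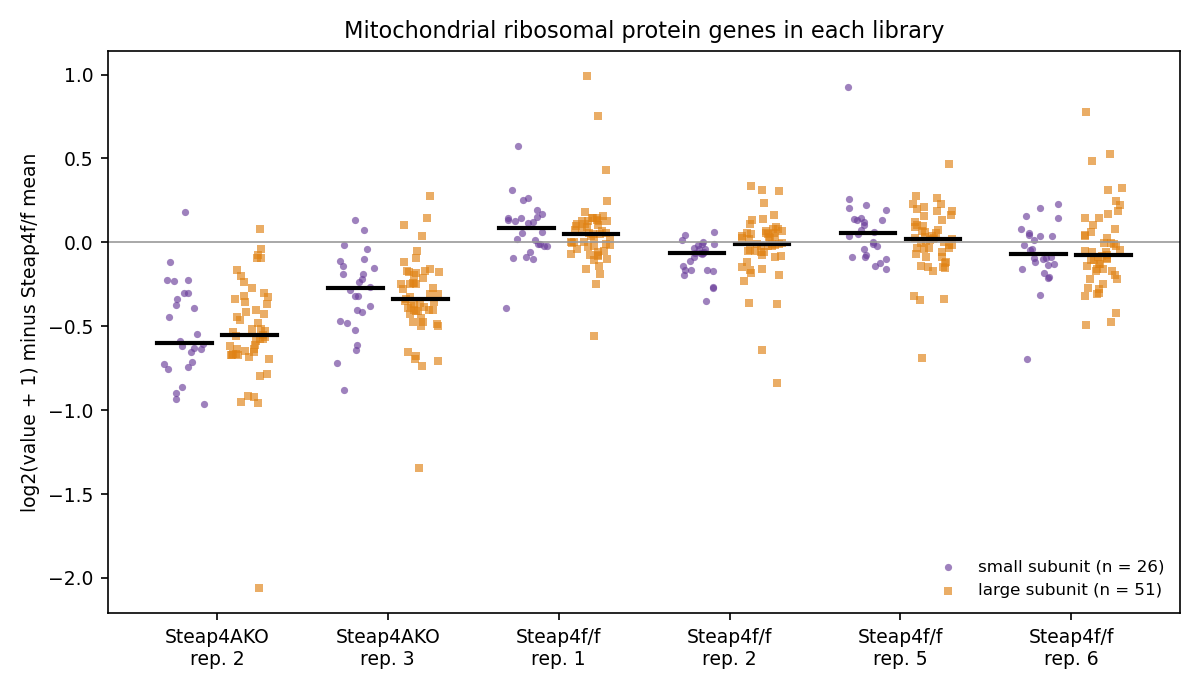
Log2(value + 1) of each ribosomal member in each library minus the mean of the Steap4f/f libraries, with 26 small-subunit genes as circles, 51 large-subunit genes as squares and black bars for the medians. The medians of both subunits lie below 0 in both Steap4AKO libraries and near 0 in the Steap4f/f libraries, with Steap4AKO replicate 2 lower than replicate 3.

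Promoters of genes for mitochondrial proteins are known for sites of NRF1, of ETS factors such as GABP, and of YY1. RefSeq windows (GRCm38.p6) from 250 bases before to 50 after the start were found for 69 of the 78 members and searched on both strands. The NRF1 motif was in 13 members (18.8%), against 10.6% of 11188 tested genes with a window and 4.6% of all 32851 windows. The ETS motif CCGGAAG was in 26 members (37.7%), against 18.6% of the tested genes and 8.86% of all windows. The YY1 motif AAGATGGC was in 12 members (17.4%), against 4.91% of the tested genes and 2.75% of all windows, and the TATA motif TATAAA in 5 members (7.25%), against 9.26% and 13.6%. The end of the ETS motif and the start of the YY1 motif can share letters, and 0 of the 3 members with both had matches that did. Of the first 3 motifs, 35 members held 1, 8 held 2, 0 held all and 26 held none.

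Members with and without a motif had medians close to each other, and the share below all Steap4f/f libraries was not tested between them. That share was 8 of 13 with and 37 of 56 without the NRF1 motif, and 17 of 26 and 28 of 43 for the ETS motif. The median log2 difference was -0.42 in the 13 members with the NRF1 motif and -0.42 in the 56 without. With and without the ETS motif it was -0.36 and -0.46. With and without the YY1 motif it was -0.47 and -0.41, and 11 of the 12 members with it lay below all Steap4f/f libraries, against 34 of 57 without. For the TATA motif, 2 of 5 members with it and 43 of 64 without lay below, at medians of -0.465 and -0.421. Of all genes tested 14.4% lay below, and that share was not computed by motif. The sets are too small to read a difference between motifs. A match is a description of letters in the window and does not show that a factor binds there. The promoters printed belong to members with lower values and different motifs or, for Mrpl58, to a member whose groups were interleaved. They are upstream bases on the plus strand of GRCm38.p6, 5′ to 3′, cut short where any exon annotated in GENCODE begins, with motif letters in capitals. Positions count from the RefSeq start of the window. The stretches of Mrpl12 and Mrps15 end at -25 and -4, where the GENCODE exon of the gene itself begins. That of Mrpl12 (chr11:120484387-120484612) holds an NRF1 motif on the reverse strand at position -81 from the start, and that of Mrpl45 (chr11:97315466-97315715) holds one at -120 and one at -38. The Mrps27 sequence (chr13:99344706-99344785) is the whole gap between Mrps27 and the start of Ptcd2, with an ETS motif on the reverse strand at -48. The Mrps15 sequence (chr4:126046678-126046924) holds none of the motifs, and that of Mrpl58 (chr11:115403502-115403751) holds an ETS motif at -17.
Mrpl12: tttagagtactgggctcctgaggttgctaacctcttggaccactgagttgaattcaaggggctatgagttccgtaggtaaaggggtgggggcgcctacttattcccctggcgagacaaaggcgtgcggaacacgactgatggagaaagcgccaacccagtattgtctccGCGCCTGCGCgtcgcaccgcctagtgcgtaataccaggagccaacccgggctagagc
Mrpl45: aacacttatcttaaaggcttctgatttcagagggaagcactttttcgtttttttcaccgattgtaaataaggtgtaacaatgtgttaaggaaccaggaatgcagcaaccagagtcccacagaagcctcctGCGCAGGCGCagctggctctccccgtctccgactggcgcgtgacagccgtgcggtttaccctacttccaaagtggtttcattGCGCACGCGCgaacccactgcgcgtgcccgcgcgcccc
Mrps27: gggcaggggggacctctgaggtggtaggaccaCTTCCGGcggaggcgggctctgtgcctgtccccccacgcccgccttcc
Mrps15: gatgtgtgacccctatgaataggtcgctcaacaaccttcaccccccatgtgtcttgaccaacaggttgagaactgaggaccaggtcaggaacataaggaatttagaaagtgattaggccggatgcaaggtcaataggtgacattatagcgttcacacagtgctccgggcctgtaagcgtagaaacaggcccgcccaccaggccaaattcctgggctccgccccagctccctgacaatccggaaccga
Mrpl58: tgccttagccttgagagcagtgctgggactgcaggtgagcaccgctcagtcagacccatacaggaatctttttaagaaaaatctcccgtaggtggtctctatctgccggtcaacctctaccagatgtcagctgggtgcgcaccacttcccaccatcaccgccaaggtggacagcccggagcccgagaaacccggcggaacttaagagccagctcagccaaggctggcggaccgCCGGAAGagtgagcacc
The Mrps27 gap serves 2 genes: Mrps27 had a log2 difference of -0.65, and Ptcd2, on its other side, one of -0.19 (limma). Mrpl58, with an ETS motif, and Mrpl12 and Mrpl45, with NRF1 motifs, had log2 differences of 0.00, -0.80 and -0.48.

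The small subunit holds the decoding centre, and several of its bacterial-type proteins had the clearest differences. Mrps21, a homolog of bacterial S21 (chr3:95862634-95871519, GRCm38, minus strand), had values of 589.5 and 580.0 in Steap4AKO replicates 2 and 3, against 872.1, 913.6, 931.6 and 826.7 in Steap4f/f replicates 1, 2, 5 and 6. Mrps15, a homolog of bacterial S15 (chr4:126046925-126055532, plus strand), had 535.9 and 648.4 in Steap4AKO libraries, against 980.4, 863.3, 852.6 and 929.8 in Steap4f/f libraries. In both genes the groups stood well apart, with Steap4f/f means 1.52 and 1.53 times the Steap4AKO means. The log2 difference was -0.60 (SE 0.13, limma adjusted p = 0.0914) for Mrps21 and -0.62 (SE 0.15, adjusted p = 0.107) for Mrps15. Mrps5, whose bacterial homolog lines the path by which messenger RNA enters the ribosome, had 460.8 and 635.7 in Steap4AKO libraries, against 972.3, 812.9, 943.6 and 801.8 in Steap4f/f libraries. Mrps7, of the subunit's head, had 860.8 and 1012.3 in Steap4AKO libraries, against 1263.6, 1331.3, 1468.5 and 1306.0 in Steap4f/f libraries. Again no Steap4AKO library reached the lowest Steap4f/f library, and the log2 differences were -0.70 (SE 0.18, limma adjusted p = 0.124) and -0.52 (SE 0.14, adjusted p = 0.131). Mrps12, the homolog of the decoding protein S12, had 341.2 and 381.9 in Steap4AKO libraries, against 490.1, 484.9, 550.3 and 469.0 in Steap4f/f libraries. Its groups did not overlap either, at a log2 difference of -0.46 (SE 0.16, limma adjusted p = 0.201).

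Proteins that mitochondria added to the small subunit lay in the same range. Mrps31, a protein of the head (chr8:22411361-22429665, plus strand), had 259.9 and 273.1 in Steap4AKO libraries, against 443.8, 407.8, 415.5 and 440.8 in Steap4f/f libraries. The libraries of each group lay close together, and the log2 difference was -0.68 (SE 0.16, limma adjusted p = 0.104). Mrps27, a pentatricopeptide repeat protein, had 323.8 and 452.3 in Steap4AKO libraries, against 659.5, 579.5, 552.6 and 625.8 in Steap4f/f libraries (log2 difference -0.65, SE 0.19, limma adjusted p = 0.151). Mrps23 and Mrps35 had log2 differences of like size, -0.67 and -0.64, with larger standard errors of 0.36 and 0.35. Mrps23 had 477.5 and 443.2 in Steap4AKO libraries, against 556.7, 574.6, 1388.7 and 644.8 in Steap4f/f libraries. The value of Steap4f/f replicate 5 stood far above the rest. Mrps35 had 283.8 and 444.0 in Steap4AKO libraries, against 824.1, 549.2, 608.3 and 342.7 in Steap4f/f libraries, and the groups overlapped through Steap4f/f replicate 6. Mrps22, which is known to be mutated in human mitochondrial disease, had the highest log2 difference of the small subunit, at 0.13 (SE 0.19, limma adjusted p = 0.746). It had 424.5 and 392.9 in Steap4AKO libraries, against 449.4, 365.7, 368.6 and 322.6 in Steap4f/f libraries. These groups overlapped.

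Mrps6 and Mrps34 had the highest levels per length in the small subunit beside Mrps21. Mrps6, a homolog of bacterial S6, had 1490.3 and 2058.4 in Steap4AKO libraries, against 2091.2, 1771.8, 1942.4 and 1736.0 in Steap4f/f libraries. The Steap4AKO libraries lay on both sides of most Steap4f/f libraries (log2 difference -0.10, SE 0.17, limma adjusted p = 0.771), and the difference was 0.08 when libraries were scaled to equal sums. Mrps6 shares bases on the same strand with Slc5a3, and reads of the pair could not be told apart here. Mrps34, a mitochondria-specific protein that binds the small-subunit RNA, had 838.8 and 1257.7 in Steap4AKO libraries, against 1401.2, 1353.0, 1427.2 and 1376.5 in Steap4f/f libraries. Steap4AKO replicate 3 lay just below the narrow Steap4f/f range and replicate 2 far below it (log2 difference -0.43, SE 0.17, limma adjusted p = 0.249). Mrps34 overlaps Nme3 on the same strand, and Mapk8ip3 covers the whole of Mrps34 on the opposite strand over 2387 bases. Mapk8ip3 had 1214.9 and 1806.2 in Steap4AKO libraries, against 2175.8, 1928.0, 2005.1 and 2373.8 in Steap4f/f libraries.

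In the large subunit the stalk, a flexible arm that recruits translation factors, held the member with the smallest adjusted p. Mrpl12, the homolog of the bacterial stalk protein L7/L12 (chr11:120484613-120489065, plus strand), is also known in human cells to bind the mitochondrial RNA polymerase. Its values were 826.5 and 1021.3 in Steap4AKO replicates 2 and 3, against 1596.3, 1682.1, 1718.2 and 1439.2 in Steap4f/f replicates 1, 2, 5 and 6. The Steap4f/f mean was 1.74 times the Steap4AKO mean, and the log2 difference was -0.80 (SE 0.15, limma adjusted p = 0.0634). Mrpl10, which anchors the L12 copies, had 842.5 and 1014.0 in Steap4AKO libraries, against 1172.5, 1224.2, 1263.2 and 1157.7 in Steap4f/f libraries. Mrpl11, at the stalk's base, had 409.7 and 460.5 in Steap4AKO libraries, against 654.9, 671.3, 657.6 and 540.6 in Steap4f/f libraries. Groups did not overlap in either gene, and the log2 differences were -0.38 (SE 0.14, limma adjusted p = 0.213) and -0.53 (SE 0.16, adjusted p = 0.17). Mrpl53, a mitochondria-specific stalk protein, had 332.9 and 499.9 in Steap4AKO libraries, against 678.1, 605.4, 677.3 and 571.3 in Steap4f/f libraries. Mrpl54, the other one, had 426.0 and 515.6 in Steap4AKO libraries, against 587.7, 845.6, 812.5 and 500.5 in Steap4f/f libraries. Only Mrpl54 overlapped between groups, through Steap4f/f replicate 6. Gm42688, a protein-coding gene, covers the whole of Mrpl53 on the same strand over 900 bases, and how reads were divided between them is not stated. Over the 5 stalk genes the median log2 difference was -0.53, and in both Steap4AKO libraries the median lay below the Steap4f/f mean (-0.65 and -0.38). Of the 5, 4 lay below all Steap4f/f libraries, as did 65.4% of all members and 14.4% of all genes tested. The stalk holds too few genes to set it apart from the other members.

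Other large-subunit proteins with small p-values came from several parts of the structure. Mrpl51, a mitochondria-specific protein (chr6:125191801-125196269, plus strand), had 857.0 and 833.1 in Steap4AKO libraries, against 1471.9, 1343.9, 1281.5 and 1357.4 in Steap4f/f libraries. Its Steap4AKO libraries were nearly equal, and the log2 difference was -0.69 (SE 0.13, limma adjusted p = 0.0637). Mrpl38, of the central protuberance, the ridge that faces the small subunit, had 506.1 and 703.5 in Steap4AKO libraries, against 1045.7, 1018.1, 994.9 and 870.3 in Steap4f/f libraries. Mrpl21, a homolog of bacterial L21, had 224.6 and 215.0 in Steap4AKO libraries, against 391.9, 353.9, 344.7 and 345.4 in Steap4f/f libraries. Neither gene overlapped between groups, at log2 differences of -0.71 (SE 0.17, limma adjusted p = 0.11) and -0.70 (SE 0.17, adjusted p = 0.111). Mrpl42, a mitochondria-specific protein, had 462.9 and 448.1 in Steap4AKO libraries, against 669.8, 682.6, 653.0 and 893.2 in Steap4f/f libraries. Mrpl15, a homolog of bacterial L15, had 401.6 and 327.5 in Steap4AKO libraries, against 531.5, 573.9, 525.1 and 497.2 in Steap4f/f libraries. Mrpl15 was one of the minority of members with a lower value in Steap4AKO replicate 3 than in replicate 2.

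Nascent chains leave the large subunit at the tunnel exit, next to the inner membrane. Mrpl45, which ties the ribosome to that membrane, had 380.3 and 586.2 in Steap4AKO libraries, against 696.1, 561.7, 587.0 and 828.0 in Steap4f/f libraries. The groups overlapped, and only Steap4AKO replicate 2 lay below the Steap4f/f range (log2 difference -0.48, SE 0.23, limma adjusted p = 0.322). Mrpl44, which has a ribonuclease III fold, had 374.9 and 455.8 in Steap4AKO libraries, against 593.4, 545.2, 541.7 and 535.2 in Steap4f/f libraries. Mrpl39 had 370.2 and 474.8 in Steap4AKO libraries, against 575.4, 553.9, 521.8 and 486.9 in Steap4f/f libraries. These groups did not overlap in either gene, at log2 differences of -0.42 (limma adjusted p = 0.229) and -0.35 (adjusted p = 0.328). The 8 genes of the tunnel exit had a median log2 difference of -0.40 and 4 of them lay below all Steap4f/f libraries, and the 6 genes of the central protuberance had a median of -0.27 with 3 below. In the 7 genes of the small subunit's head the median was -0.46, and 2 lay below all Steap4f/f libraries. Beside the 14.4% of all genes tested that lay below, these regions hold too few genes to read a difference between them.

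Mrpl2 had by far the largest log2 difference of the set and also the widest spread. It is the homolog of bacterial L2, which sits near the peptidyl transferase centre (chr17:46646229-46650139, plus strand). Its values were 289.1 and 475.0 in Steap4AKO libraries, against 2035.5, 674.3, 747.0 and 2064.0 in Steap4f/f replicates 1, 2, 5 and 6. Both Steap4AKO libraries were lowest, but the Steap4f/f libraries formed a high and a low pair, with a coefficient of variation of 56.1%. The log2 difference was -1.70 (SE 0.52, limma adjusted p = 0.17). A long noncoding RNA, Gm26904, covers the whole of Mrpl2 on the same strand over 3911 bases, and the sources used here do not say how the counting divided reads between them.

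Some members did not differ between groups beyond the spread. Mrpl58, a peptidyl-tRNA hydrolase that can free stalled chains and is built into the central protuberance, had 476.6 and 503.9 in Steap4AKO libraries, against 480.6, 442.3, 523.2 and 519.0 in Steap4f/f libraries. The libraries of both groups were interleaved (log2 difference 0.00, SE 0.15), and the difference was 0.18 when libraries were scaled to equal sums. Mrpl3, a homolog of bacterial L3, had 725.6 and 831.9 in Steap4AKO libraries, against 577.0, 533.6, 747.2 and 960.6 in Steap4f/f libraries. Its Steap4f/f libraries enclosed both Steap4AKO libraries (log2 difference 0.18, SE 0.25, limma adjusted p = 0.727). Mrpl24 had 976.3 and 933.3 in Steap4AKO libraries, against 988.8, 1294.0, 934.2 and 981.6 in Steap4f/f libraries, and its log2 difference of -0.12 became 0.06 with libraries scaled to equal sums. Mrpl19 had 243.8 and 245.0 in Steap4AKO libraries, against 190.0, 249.8, 321.6 and 404.7 in Steap4f/f libraries, and these overlapped (log2 difference -0.20, limma adjusted p = 0.757).

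The members' differences were close to each other for their error. The SD of the log2 differences over the 78 members was 0.25, or 0.20 without Mrpl2, and the median standard error of a single member was 0.17. For 72 members the difference lay within 2 standard errors of the members' median. The 6 that lay farther off were Mrpl2, Mrpl12 and Mrpl51 on the low side and Mrpl3, Mrps22 and Mrpl58 on the high side. For 52 members the interval of 2 standard errors lay wholly below 0. This is a looser rule than an unadjusted p under 0.05, which 42 members reached (limma). Its share over all genes tested was not computed. Coefficients of variation over the Steap4f/f libraries ran from 0.703% for Mrps26 to the 56.1% of Mrpl2.

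**Figure D2:**
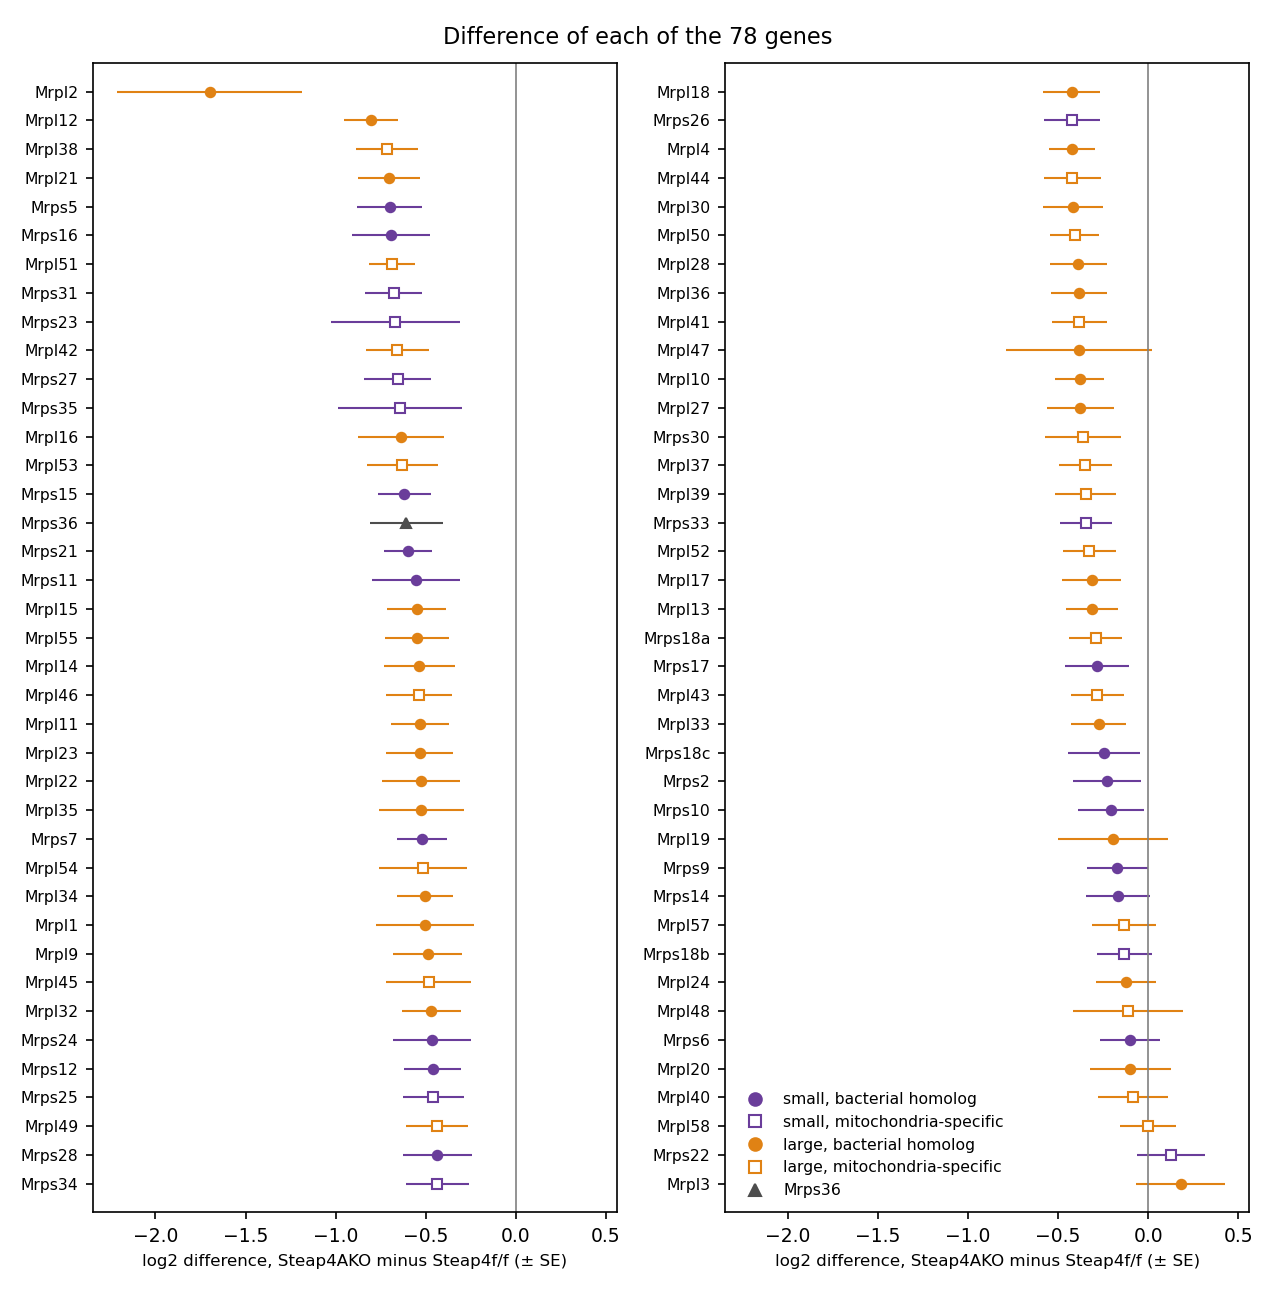
Log2 difference of Steap4AKO minus Steap4f/f libraries for each of the 78 genes, as points with bars of 1 standard error from limma, in order of the difference, with colour for the subunit and filled or open symbols for bacterial homologs or mitochondria-specific proteins. Colours and symbols are mixed along the whole order, Mrpl2 lies lowest with the longest bar, and Mrpl3 and Mrps22 lie above 0.

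Small and large subunit did not separate. The median log2 difference was -0.45 over the 26 small-subunit and -0.42 over the 51 large-subunit genes, and 25 and 50 of them had a lower mean in Steap4AKO libraries. Both Steap4AKO libraries lay below all Steap4f/f libraries in 15 small-subunit genes (57.7%) and in 35 large-subunit genes (68.6%). Of all genes tested, 14.4% did. At an unadjusted p under 0.05 (limma), 12 (46.2%) and 29 (56.9%) were lower, against 9.66% of all genes tested. The small minus the large median was -0.04 and 0.06 in Steap4AKO replicates 2 and 3, and it was 0.04, -0.06, 0.03 and 0.01 in Steap4f/f replicates 1, 2, 5 and 6. Steap4AKO replicate 2 lay inside the Steap4f/f range (SD 0.04) and replicate 3 just above it, on opposite sides of 0.

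The origin of the proteins did not separate them either. The median log2 difference was -0.42 over the 31 mitochondria-specific and -0.45 over the 46 bacterial-homolog genes. In 21 specific genes (67.7%) and 29 homologs (63.0%) both Steap4AKO libraries lay below all Steap4f/f libraries, against 14.4% of all genes tested. The specific minus the homolog median was -0.03 and 0.01 in Steap4AKO replicates 2 and 3, within the range of -0.07 to 0.08 in the Steap4f/f libraries. In the fit it was 0.03, or 0.01 with Mrps18a and Mrps18b among the homologs. Split both ways, the medians were -0.45 for 10 specific and 16 homologous small-subunit genes, -0.38 for 21 specific and -0.45 for 30 homologous large-subunit genes. Below all Steap4f/f libraries lay 7 of 10 specific and 8 of 16 homologous small-subunit genes, and 14 of 21 specific and 21 of 30 homologous large-subunit genes.

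Mrps18a, Mrps18b and Mrps18c are 3 relatives of one bacterial protein, S18, that occupy different places in the ribosome. Mrps18a, in the large subunit, had 487.7 and 450.5 in Steap4AKO libraries, against 582.2, 607.7, 573.9 and 534.4 in Steap4f/f libraries. Mrps18b, in the small subunit, had 707.7 and 689.6 in Steap4AKO libraries, against 735.4, 774.4, 685.4 and 882.4 in Steap4f/f libraries. Mrps18c, which holds the bacterial position in the small subunit, had 264.8 and 325.0 in Steap4AKO libraries, against 326.1, 345.3, 416.8 and 311.9 in Steap4f/f libraries. Only Mrps18a was without overlap between groups, at a log2 difference of -0.29 (SE 0.15, limma adjusted p = 0.336). The values for Mrps18b and Mrps18c were -0.13 (SE 0.15) and -0.24 (SE 0.20), and that of Mrps18b was 0.05 with libraries scaled to equal sums. Mrps30, the other large-subunit protein with a small-subunit symbol, had 605.5 and 928.4 in Steap4AKO libraries, against 1020.4, 848.1, 870.4 and 1145.3 in Steap4f/f libraries, with overlap through Steap4AKO replicate 3. Mrps36, the 2-oxoglutarate dehydrogenase component, had 200.4 and 269.5 in Steap4AKO libraries, against 322.8, 376.7, 328.1 and 395.5 in Steap4f/f libraries. It did not overlap between groups, at a log2 difference of -0.61 (SE 0.20, limma adjusted p = 0.194).

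Levels of the members within the Steap4f/f libraries were compared per kilobase of the principal transcript. The highest of the small subunit were Mrps6 at 2229 ± 194 values per kb (SD, n = 4), Mrps21 at 1816 ± 95.7 and Mrps34 at 1514 ± 34.8. Those of the large subunit were Mrpl33 at 1808 ± 196, Mrpl30 at 1390 ± 169 and Mrpl2 at 1339 ± 751. Mrpl33 shares 67447 bases with another annotated gene, Gm43809, on the same strand. The spread of the libraries separated the 3 small-subunit genes from each other, but it did not separate Mrpl2 from either of its neighbours. The lowest were Mrps16, Mrps35 and Mrps17 in the small subunit (139 ± 19.9, 140 ± 47.6 and 156 ± 23.8 per kb) and Mrpl19, Mrpl47 and Mrpl1 in the large subunit (58.3 ± 18.5, 75.4 ± 41.2 and 116 ± 18.7 per kb). Within each of these 2 low groups neighbours overlapped in their spread. The order depended on the length used: with the summed length of all exons Mrpl33 came to 118 per kb, and the 2 measures had a Spearman correlation of 0.768 over the 78 members, which share the same libraries. The median level over the members was 340 and 374.9 per kb in Steap4AKO replicates 2 and 3, against 460.5, 447.9, 471.9 and 478.6 in Steap4f/f replicates 1, 2, 5 and 6. All Steap4f/f libraries lay above both Steap4AKO libraries on this scale too.

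5 ribosomal proteins of mitochondria carry other symbols and were not members. Dap3, a GTP-binding protein of the small subunit, had 698.9 and 883.6 in Steap4AKO libraries, against 992.9, 1019.8, 1070.9 and 1069.6 in Steap4f/f libraries. Gadd45gip1, of the large subunit, had 489.9 and 610.6 in Steap4AKO libraries, against 879.2, 826.7, 884.1 and 710.0 in Steap4f/f libraries. Chchd1, Aurkaip1 and Ptcd3, of the small subunit, were also below all Steap4f/f libraries in both Steap4AKO libraries. All 5 thus lay lower without overlap, as did 65.4% of the members and 14.4% of all genes tested. Their log2 differences were -0.40 to -0.59 with a median of -0.47, and none passed the adjusted test (limma adjusted p of 0.151 to 0.235). The ribosome's own RNAs varied much more. The small ribosomal RNA, mt-Rnr1, had 3397.2 and 4172.6 in Steap4AKO libraries, against 16029, 9648.8, 4073.6 and 8954.9 in Steap4f/f replicates 1, 2, 5 and 6. The large one, mt-Rnr2, had 6474.1 and 5654.2 in Steap4AKO libraries, against 14938, 12739, 5583.1 and 11766 in Steap4f/f libraries. In both, Steap4f/f replicate 5 lay with the Steap4AKO libraries (limma adjusted p = 0.234 and 0.292), although the proteins' median in that library was 0.02 above the Steap4f/f mean.

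Factors that build the mitochondrial ribosome or work on it had lower means as well, with fewer clear separations. Of 26 assembly factors, 23 had a lower mean in Steap4AKO libraries, 8 lay below all Steap4f/f libraries and 4 had an unadjusted p under 0.05, with a median log2 difference of -0.35. Over all genes tested these shares were 47.8%, 14.4% and 9.66%. Their median was -0.56 in Steap4AKO replicate 2 and -0.14 in replicate 3. Mettl17, needed for assembly of the small subunit, had 174.7 and 173.3 in Steap4AKO libraries, against 375.5, 414.6, 304.7 and 243.2 in Steap4f/f libraries. Rcc1l, a factor of large-subunit assembly, had 225.3 and 260.9 in Steap4AKO libraries, against 399.2, 363.6, 384.2 and 365.5 in Steap4f/f libraries. Both lay without overlap, whereas Trub2, Fastkd2 and Mrm1 were the assembly factors with a higher mean. The list of 15 translation factors was drawn broadly and took in Oxa1l, Lrpprc and Slirp. All 15 had a lower mean (47.8% of all genes tested did), and the median was -0.27. Below all Steap4f/f libraries lay 6, Slirp among them (14.4% of all genes did). Gfm2, which splits ribosomes for recycling, had 545.2 and 654.0 in Steap4AKO libraries, against 1033.5, 974.6, 951.7 and 1015.8 in Steap4f/f libraries. Tufm, the elongation factor that brings aminoacyl-tRNA, had 1148.4 and 1392.7 in Steap4AKO libraries, against 2042.3, 2107.9, 1897.5 and 1767.9 in Steap4f/f libraries. Both were well separated, at log2 differences of -0.73 (limma adjusted p = 0.0658) and -0.62 (adjusted p = 0.0969).

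In the fit the members lay between the nuclear-encoded subunits of the respiratory chain and ATP synthase and the proteins of the cytosolic ribosome. The same held in Steap4AKO replicate 2, whereas in replicate 3 the members' median lay above those of both lists. The median log2 difference was -0.43 over the 78 members, -0.79 over 83 nuclear-encoded subunits of the respiratory chain and ATP synthase and -0.25 over 84 cytosolic ribosomal proteins. Both Steap4AKO libraries lay below all Steap4f/f libraries in 65.4% of the members and in 95.2% of the chain subunits. Of the 84 cytosolic ribosomal proteins 21 did, and of all genes tested 14.4% did. The lowest log2 difference was -5.771 among the chain subunits and -4.895 among the cytosolic ribosomal proteins. These lay far outside the interquartile ranges of -0.919 to -0.644 and -0.344 to -0.165. The part of muscle in the values of both lists was not tested. The Steap4AKO libraries were ordered differently in the lists. The members' medians were -0.56 and -0.32 in Steap4AKO replicates 2 and 3, those of the chain subunits -0.97 and -0.62, and those of the cytosolic ribosomal proteins -0.12 and -0.40. Replicate 2 was below replicate 3 in 62 of 78 members and in 74 of 83 chain subunits, but in 2 of 84 cytosolic ribosomal proteins. The medians of the cytosolic list ranged from -0.16 to 0.14 among Steap4f/f libraries, so Steap4AKO replicate 2 lay inside that range and replicate 3 outside it.

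**Figure D3:**
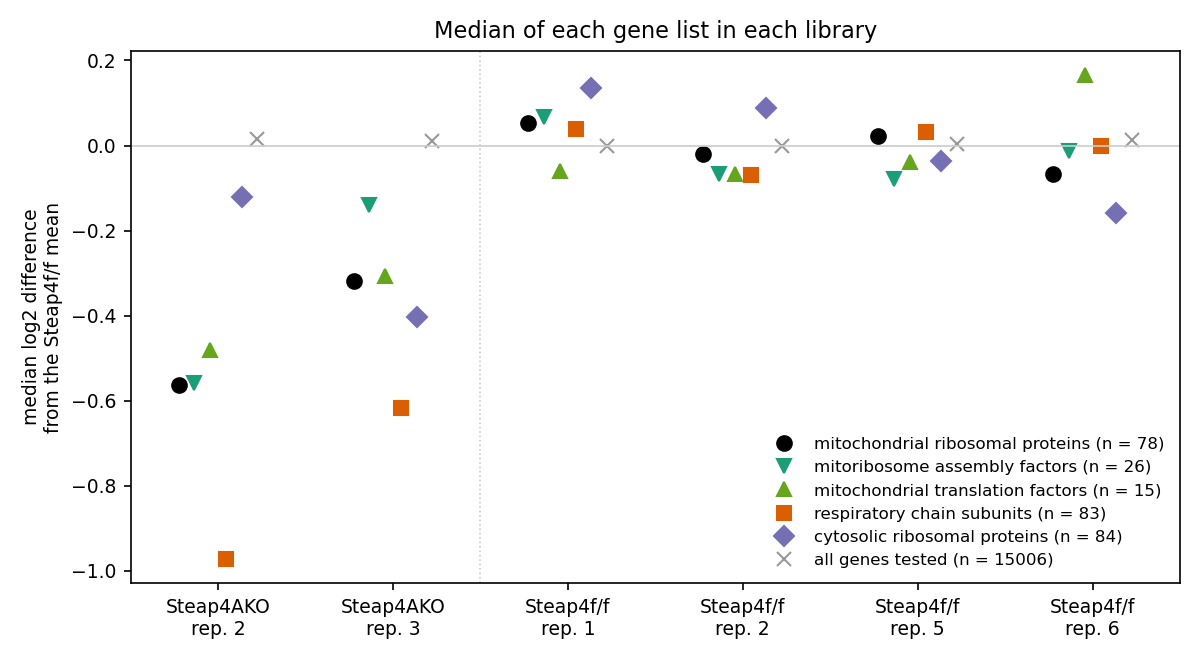
Median, over the genes of each list, of the log2 difference from the Steap4f/f mean in each library, with the number of genes in the legend. Mitochondrial ribosomal proteins (-0.56 and -0.32) lie below all genes in both Steap4AKO libraries and above the respiratory chain subunits, and cytosolic ribosomal proteins are lower in Steap4AKO replicate 3 than in replicate 2.

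Many of these genes start back to back with another gene. 33 members have a protein-coding neighbour on the opposite strand whose start lies within 1000 bases, and Mrpl46 and Mrps11 are such neighbours of each other. Mrpl46 and Mrps11 had log2 differences of -0.54 and -0.55, and both lay below all Steap4f/f libraries. The other pairs gave 27 tested neighbours that are no members. Their median log2 difference was -0.10, against -0.42 for the 27 members beside them. Of the neighbours, 4 (14.8%) lay below all Steap4f/f libraries, against 14.4% of all genes tested, whereas 20 of their members (74.1%) did. The member had the lower log2 difference in 23 of the 27 pairs. In Steap4AKO replicates 2 and 3 the members' medians were -0.54 and -0.38, and those of the neighbours -0.12 and -0.10. The neighbours below all Steap4f/f libraries were Ndufs6 and Ndufb5, both subunits of respiratory complex I, with Apba3 and Tmem63b. Ndufs6 had 258.9 and 322.2 in Steap4AKO libraries, against 610.1, 604.7, 682.5 and 389.2 in Steap4f/f libraries. Gga3, which starts beside Mrps7, overlaps it by 127 bases on the opposite strand and acts in sorting from the Golgi, had higher values, with 2040.4 and 681.7 in Steap4AKO libraries, against 431.6, 258.5, 335.5 and 357.7 in Steap4f/f libraries. Its value in Steap4AKO replicate 2 was the highest, and the log2 difference of 1.79 had a limma adjusted p of 0.096.

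**Figure D4:**
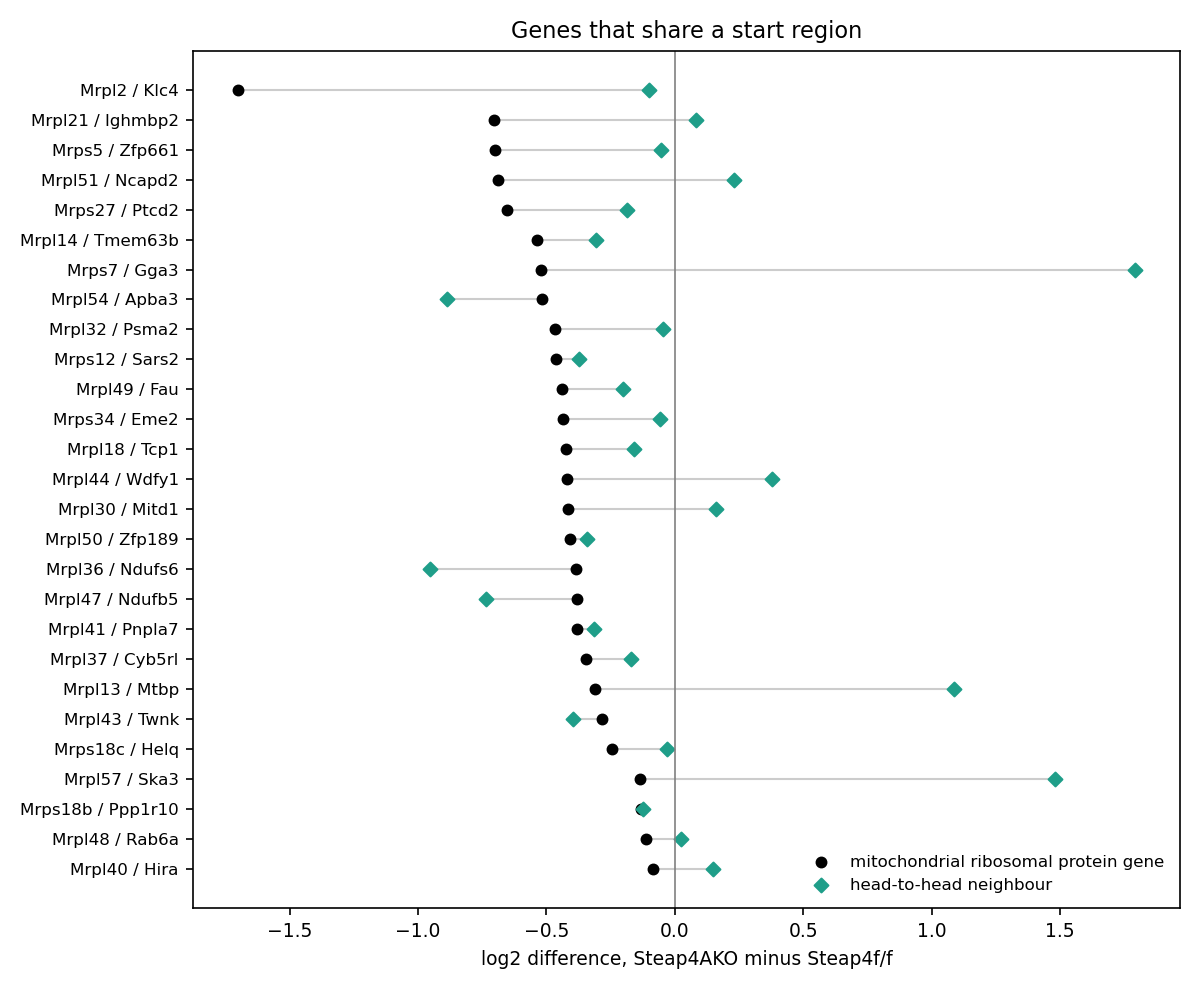
Log2 difference of Steap4AKO minus Steap4f/f libraries for 27 mitochondrial ribosomal protein genes (circles) and the genes that start head to head with them (diamonds), 1 pair per line. The circles cluster around -0.42 and the diamonds around -0.10, and the member lies to the left in 23 pairs.

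Overlapping genes could share reads, and the sources used here do not say whether the counting used strand. Of the members, 40 share bases with another annotated gene and 38 with none. In these 38 the median log2 difference was -0.50, and 28 (73.7%) lay below all Steap4f/f libraries, against 14.4% of all genes tested. Of the members that also have no head-to-head neighbour, 28 in number, 21 did, with a median of -0.53.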

How the data were processed

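RNA from mouse iWAT was sequenced in 6 libraries. The authors deposited 1 table of signal values, which are not whole numbers and look like counts divided by size factors. The submitters' processing notes name DESeq2 1.12.4, R 4.2.0, RSEM 1.3.3 and STAR 2.7.0e for GRCm38, also called mm10, and give no roles or order. The steps between low values gave the worth of 1 read (0.714 to 1.18 by library), but only 51.7% to 59.2% of low values came within 0.1 of a whole read, so no count model was used and depths are estimates.

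The test was limma 3.58.1 (R 4.3.3, trend on intensity) on log2(value + 1), for the 15006 genes with a mean of at least 10. P-values are two-sided and adjusted over all these genes by Benjamini-Hochberg with a threshold of 0.05. Fold changes on this scale understate those of low genes. Symbols and coordinates come from GENCODE M21 (15133 identifiers had a symbol, 43 did not). The gene Mrpl23-ps1 and other pseudogenes were left out by the rule. Members and all lists were chosen with earlier results of these data known, so counts and medians over lists have no test. Members named in the text are those with the smallest p, the largest log2 difference, the highest or lowest level per kb or the widest Steap4f/f spread in each subunit, and those fixed by role. Neighbours and assembly and translation factors were named after their values were seen. Alternatives were other pseudocounts, filters, scalings and variance settings, each library left out, and members free of overlaps, the last chosen after seeing the data.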

Additional observations from a re-analysis of the deposited data

Results flagged for a closer look

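Within the 4 Steap4f/f libraries, 1 library stood far from the other 3 in 8 of the members and in Steap4. This rule flags about 1 in 20 groups by chance, and 9 of 86 genes examined met it. Steap4f/f replicate 1 was high in Mrpl47 (461.6, with 161.7 and 195.4 in Steap4AKO libraries and 179.8 to 191.1 in the other Steap4f/f libraries), in Mrps14 (757.7) and in Steap4 (17018). Replicate 2 was high in Mrpl24 (1294.0) and Mrpl28 (805.5) and low in Mrpl43 (579.9). Replicate 5 was high in Mrps23 (1388.7). Replicate 6 was high in Mrpl42 (893.2) and low in Mrpl11 (540.6). Mrpl47 overlaps Actl6a, whose value in Steap4f/f replicate 1 was 396.5.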

How the results depend on the processing

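No paired analysis was possible because the groups share only the replicate number 2. No alternative that was run gave the members a median log2 difference above 0. The count of calls over all genes, 71, was the least stable value: it was 1 with a pseudocount of 0.5, 123 with a pseudocount of 5, 1 with a mean of at least 50, 13 without the trend, 1 with a robust variance prior and 119 with array weights. Leaving out 1 library gave 1 to 821 calls. The cause was not tested.

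Scaling to equal sums put the median of all genes at 0.207 and that of the members at -0.247. The members' medians in Steap4AKO replicates 2 and 3 were then -0.320 and -0.194. Below all Steap4f/f libraries lay 29 members and 7.67% of all genes. At an unadjusted p under 0.05 (limma) there were 12 members, and the share of all genes is not given here. With 1 library left out, the members' median ranged from -0.562 to -0.319, the small minus the large median from -0.053 to 0.061, and the members at an unadjusted p under 0.05 from 12 to 41. A group with 1 library left was assumed to vary like the other. The median was -0.504 in members that overlap no other gene, and -0.530 in those also without a head-to-head neighbour.

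Signs turned for some members near 0. Scaling to equal sums gave 0.059 for Mrpl24, 0.183 for Mrpl58, 0.017 for Mrps14, 0.051 for Mrps18b and 0.082 for Mrps6. Mrpl58 was 0.020 with equal upper quartiles, 0.012 with quantile normalization and 0.001 with array weights, and with 1 library left out it ranged from -0.050 to 0.040. Mrps6 ranged from -0.335 to 0.131, the last without Steap4AKO replicate 2. Without Steap4AKO replicate 3, the log2 differences of Mrpl12, Mrpl38, Mrps5 and Mrps34 were -0.957, -0.952, -0.931 and -0.727, from Steap4AKO replicate 2 alone. Of the other values for single genes, 826 kept their direction and side of the threshold, and 34 levels per kb moved with the length used. With 2 Steap4AKO libraries, differences well under the median standard error of 0.174 could not be resolved. Count models were not run, since whole reads were not recovered.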
